A study of Mus musculus with 17 samples.

Results

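The E2F family is described here by its 8 genes in the mouse, E2f1 to E2f8, in germinal centre (GC) B cells. The members were chosen by gene symbol and are 8 of the 21848 genes in the count files. All 8 passed the filter on low counts in both data sets, where 10220 and 10120 genes were tested. E2F proteins bind the promoters of genes for DNA replication and cell-cycle entry. Retinoblastoma-type pocket proteins hold them in check in resting cells, and phosphorylation by cyclin-dependent kinases (CDKs) such as CDK2 releases them. E2f1, E2f2 and E2f3 are known mainly as activators, and E2f4 to E2f8 mainly as repressors. GC B cells divide quickly in the dark zone and pause in the light zone, and the study used a treatment that drives this division.

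Lymph node GC B cells were profiled with 10X Genomics 5′ single-cell RNA sequencing, and hashtag antibodies marked the mouse of origin. In the time course, CD45.1/1 recipients primed with ovalbumin (OVA) were given B1-8hi B cells, which bind the hapten NP and carried CD45.2/2. The recipients were then immunized with NP-OVA. Anti-DEC-OVA, an antibody that delivers OVA to B cells bearing DEC-205 and so draws T cell help to them, was injected on day 7, so that days 7, 9 and 10 correspond to 0 h, 48 h and 72 h of treatment. The 0 h group held 9 mice. At 48 h there were 9 mice with anti-DEC-OVA and 6 without, and at 72 h 7 with and 8 without, from 2 experiments of 25 and 14 mice. The study describes the transferred population as a mixture. A small part of it carries DEC-205 and an H2B-mCherry transgene under tTA control, the rest being Ly75-/-. Cells without the B1-8hi receptor pairing were kept in the sums. The study describes the profiled time-course cells as DEC-205+ where it counts their mutations, whereas the sample labels name no such sort. In the second data set, GC B cells carrying the Rosa26 DHB-tdTomato reporter, in part together with H2B-GFP, were taken from treated mice at 72 h and sorted by image into C cells, with cytoplasmic reporter and high CDK2 activity, and N cells, with nuclear reporter and low CDK2 activity. It held 7 mice with both populations. Mice of both sexes were used.

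The time course held 292 to 1045 cells and 1984426 to 13373185 unique molecular identifiers (UMIs) per mouse, and the sort 278 to 1679 cells and 3988733 to 20394909 UMIs. Values are CPM, the UMIs of a gene scaled to a common library total with TMM factors, with the mouse as replicate. Summed CPM of the 6 GC B cell markers ranged from 1228 to 1578 over the mice of the time course and from 1389 to 1705 in the sort, and the 6 T cell markers stayed at or below 59.5 CPM in all mice, with none of either list at 0. One 0 h mouse had 312 cells, of which 68.6% were called G0-G1. UMIs per cell averaged 15086 ± 1340 (SD, n = 9 mice) in treated mice at 48 h against 8421 ± 1015 (n = 6) in untreated mice, so that equal CPM there meant more UMIs per cell. Pools shared 6 to 94 cell barcodes.

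The genes lie on different chromosomes, and several carry E2F sites at their own start. In GRCm39 with GENCODE vM39, E2f1 lies at chr2:154401326-154411812 on the minus strand, E2f3 at chr13:30090558-30170046 on the minus strand, E2f7 at chr10:110581300-110623245 on the plus strand and E2f8 at chr7:48516176-48531452 on the minus strand. Windows from 250 bases before to 50 bases after the start of the canonical transcript were searched on both strands for TTTCCCGC, TTTCGCGC, TTTGGCGC and TTTGCCGC. A match was found for 5 of the 8 members (62.5%), namely E2f1, E2f2, E2f3, E2f7 and E2f8, and for 614 of 21757 protein-coding genes (2.82%). E2f4, E2f5 and E2f6 held none of these letters in the window. The promoters of 3 members with a match are shown from 250 bases before to 30 bases after the start, as examples of members that were higher in cells with high CDK2 activity, described below. Capitals mark the matches.
E2f1 (GRCm39, chr2:154411783-154412062, minus strand): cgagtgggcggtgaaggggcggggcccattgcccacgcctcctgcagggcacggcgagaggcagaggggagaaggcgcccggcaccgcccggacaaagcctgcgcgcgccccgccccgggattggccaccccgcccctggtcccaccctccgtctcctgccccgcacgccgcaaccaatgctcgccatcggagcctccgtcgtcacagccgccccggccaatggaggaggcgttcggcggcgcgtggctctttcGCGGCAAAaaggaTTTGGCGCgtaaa
E2f3 (GRCm39, chr13:30170017-30170296, minus strand): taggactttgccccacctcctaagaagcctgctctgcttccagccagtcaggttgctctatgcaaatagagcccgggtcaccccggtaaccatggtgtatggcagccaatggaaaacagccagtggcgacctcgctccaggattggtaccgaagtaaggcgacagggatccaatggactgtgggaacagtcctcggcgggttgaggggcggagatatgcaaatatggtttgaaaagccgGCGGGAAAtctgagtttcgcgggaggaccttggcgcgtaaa
E2f7 (GRCm39, chr10:110581056-110581335, plus strand): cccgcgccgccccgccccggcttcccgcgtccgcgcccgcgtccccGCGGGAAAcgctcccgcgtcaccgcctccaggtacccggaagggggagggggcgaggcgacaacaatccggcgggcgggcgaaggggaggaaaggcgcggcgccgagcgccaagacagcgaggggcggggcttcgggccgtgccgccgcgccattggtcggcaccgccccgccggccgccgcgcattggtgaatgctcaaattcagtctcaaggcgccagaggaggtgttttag
E2f1 held 2 matches, which began 4 and 17 bases after the start. In E2f3 the match began 11 bases before the start, and in E2f7 204 bases before it, whereas in E2f2 it began 39 bases after the start. A match describes the letters of the window and does not show that a factor binds there.

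At 48 h after anti-DEC-OVA, the question was which family members differ between treated and untreated mice during the proliferative burst. E2f8 and E2f7, the atypical repressors that bind DNA without a partner, had the largest rises, 1.48-fold and 1.36-fold. E2f1, E2f3 and E2f4 rose by smaller steps, and E2f5 fell. In total 5 of 8 members rose and 1 fell, against 26.3% of all tested genes called higher and 21.1% called lower. The median log2 fold change was 0.30 over the members and stayed near 0 over all genes.

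E2f8 was at 51.3, 57.8 and 64.8 CPM (lowest, median and highest) in untreated mice at 48 h and at 78.9, 83.9 and 97.5 CPM in treated mice. The groups did not overlap, and the log2 fold change was 0.57 ± 0.086 (SE; edgeR quasi-likelihood test, Benjamini-Hochberg adjusted p = 9.9e-07). E2f7, which acts beside E2f8, was at 24.8, 30.1 and 43.7 CPM in untreated and at 34.2, 43.7 and 54.6 CPM in treated mice. The ranges of E2f7 overlapped, with a log2 fold change of 0.44 ± 0.084 (edgeR adjusted p = 3.3e-05).

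Among the activators, E2f1, a main driver of entry into S phase, was at 37.6, 42.5 and 49.6 CPM in untreated mice and at 51.6, 56.8 and 59.1 CPM in treated mice. Its groups did not overlap, with a log2 fold change of 0.36 ± 0.061 (edgeR adjusted p = 4.5e-06). E2f3, which shares targets with E2f1, was at 32.6 to 66.4 CPM in untreated and 42.6 to 76.9 CPM in treated mice, a log2 fold change of 0.30 ± 0.085 (edgeR adjusted p = 0.0034). Most of the spread of E2f3 lay between the experiments. In the larger experiment it averaged 37.2 ± 4.59 CPM (n = 4) untreated and 48 ± 4.82 CPM (n = 6) treated, and in the smaller 63.9 ± 3.53 (n = 2) and 73.6 ± 4.63 (n = 3). E2f2, an activator prominent in blood cells, was at 75.3, 80.5 and 88.8 CPM in untreated and 82.0, 89.0 and 95.9 CPM in treated mice. Its log2 fold change of 0.12 had a 95% interval of 0.01 to 0.24 and did not pass the threshold (edgeR adjusted p = 0.069). TMM factors raised all log2 values of treated against untreated mice at 48 h by 0.075 relative to plain CPM. Part of the 0.12 of E2f2 therefore rests on the factors.

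The repressors of the pocket-protein-bound type went in opposite directions. E2f4, the main partner of p107 and p130 in resting cells, averaged 99.5 ± 8.30 CPM (n = 4) in untreated and 121.0 ± 3.58 CPM (n = 6) in treated mice of the larger experiment. In the smaller experiment it averaged 61.5 ± 2.81 (n = 2) and 79.0 ± 1.83 CPM (n = 3), so both experiments showed the rise although their levels were far apart. Over both, the log2 fold change of E2f4 was 0.31 ± 0.047 (edgeR adjusted p = 1.2e-06). E2f5, its closest relative, was at 22.2, 25.8 and 31.9 CPM in untreated and 15.5, 19.7 and 22.5 CPM in treated mice, a log2 fold change of -0.47 ± 0.069 (edgeR adjusted p = 5.7e-07). The ranges of E2f5 met only at the lowest untreated and the highest treated mouse. E2f6, which lacks a pocket-protein-binding region and works with Polycomb proteins, was at 12.8 to 16.4 CPM untreated and 13.2 to 16.5 CPM treated. Its log2 fold change of 0.02 (95% interval -0.15 to 0.18) was smaller than the shift of 0.075 from the TMM factors.

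Counted per cell the picture differs, because treated cells at 48 h held more UMIs in total. E2f8 gave 485 ± 45.5 UMIs per 1000 cells in untreated and 1227 ± 140 in treated mice, and E2f1 369 ± 71.1 and 803 ± 82.5. Even E2f5, which fell in CPM, gave 226 ± 35.9 UMIs per 1000 cells untreated and 279 ± 48.5 treated. Treated and untreated mice of each experiment were in the same pool. Whether treated cells held more RNA or were captured more efficiently was not tested.

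**Figure D1:**
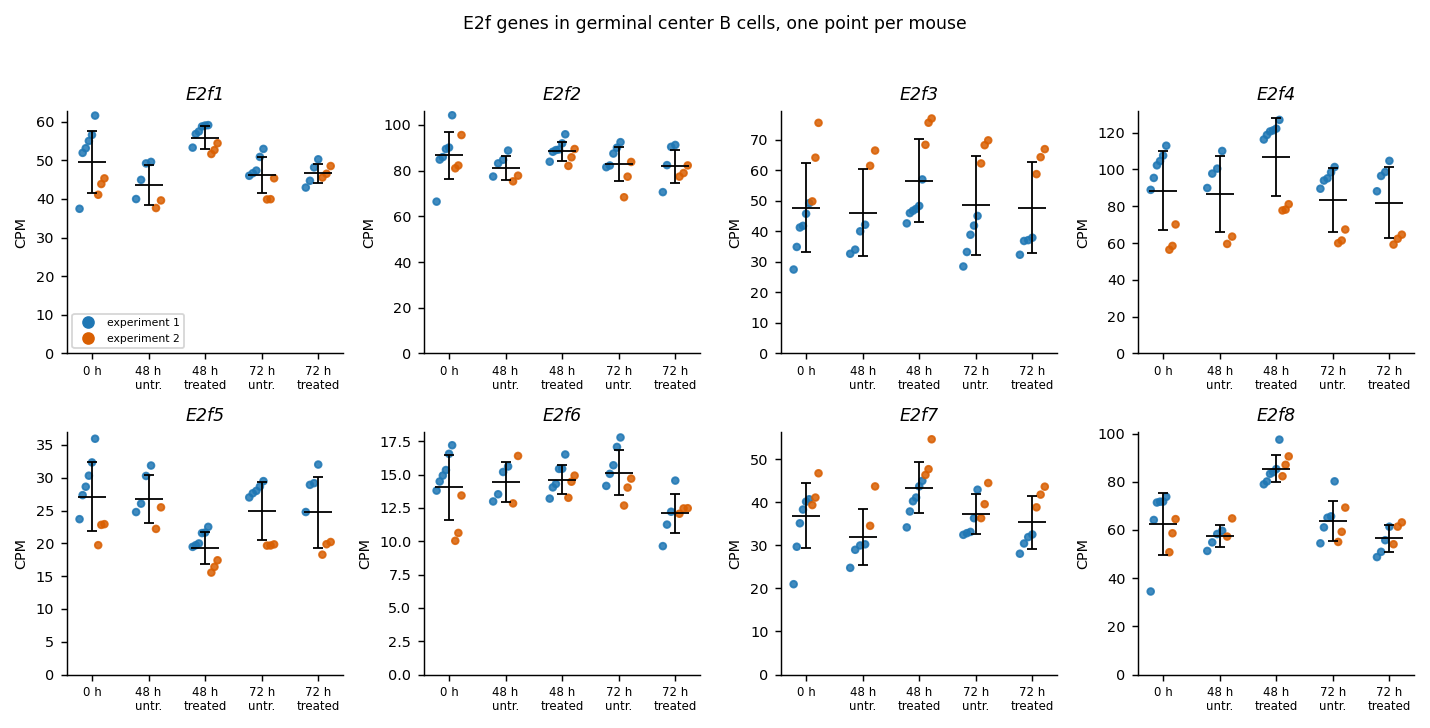
Each panel shows 1 gene, with CPM on the vertical axis, the 5 groups of the time course on the horizontal axis, 1 point per mouse coloured by experiment, and the mean with SD in black. In E2f1 and E2f8 all treated mice at 48 h lie above all untreated mice at 48 h, and in E2f4 the 2 experiments form separate bands.

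At 72 h 7 of 8 members did not pass between treated and untreated mice, with log2 fold changes from -0.17 to 0.02. Only E2f6 passed the threshold, at 12.7, 14.9 and 17.8 CPM in untreated and 9.63, 12.2 and 14.5 CPM in treated mice, a log2 fold change of -0.32 ± 0.093 (edgeR adjusted p = 0.023). The call of E2f6 was lost with cells thinned to 1 depth (log2 fold change -0.31, adjusted p = 0.37), in B1-8hi cells alone (-0.26, adjusted p = 0.13) and in the smaller experiment (-0.18, adjusted p = 0.83). Of all genes, 4.67% were called higher and 3.88% lower. E2f8 was at 54.4, 63.1 and 80.2 CPM in untreated and 48.7, 55.7 and 63.1 CPM in treated mice, with a 95% interval of -0.35 to 0.02 for its log2 fold change.

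Between treated mice at 48 h and 72 h, 6 members were higher at 48 h and 1 was lower, against 26.8% and 22.3% of all genes. In the smaller experiment alone 2 members, E2f4 and E2f8, passed, and over 10 alternatives E2f6 passed in 7 and E2f1 and E2f3 in 8. The 72 h mice that enter here are the treated mice of the comparison above. E2f8 was 1.51-fold higher at 48 h (log2 0.59 ± 0.085, edgeR adjusted p = 2.4e-07) and did not overlap with 72 h, and E2f5 had a log2 difference of -0.39 ± 0.070 (edgeR adjusted p = 1.2e-05). The remaining calls were E2f1, E2f3, E2f4, E2f6 and E2f7, with log2 values between 0.26 and 0.33. E2f2 did not pass (log2 0.11, edgeR adjusted p = 0.115).

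Against the 0 h mice, E2f1, E2f3, E2f4, E2f7 and E2f8 were higher in treated mice at 48 h and E2f5 was lower, where 27.1% of genes were called higher and 24.7% lower. E2f8 was at 34.5, 64.5 and 73.7 CPM at 0 h, below every treated mouse at 48 h, with a log2 difference of 0.43 ± 0.076 (edgeR adjusted p = 9.4e-06). The mouse at 34.5 CPM was the one with 68.6% of its cells in G0-G1. Without it, E2f1 (log2 0.10, adjusted p = 0.090) and E2f7 (log2 0.14, adjusted p = 0.085) no longer passed. Over 11 alternatives E2f1 passed in 5, with log2 values from 0.02 to 0.24, E2f7 in 4 (0.11 to 0.22) and E2f3 in 7 (0.13 to 0.37), whereas E2f5 and E2f8 passed in all 11 and E2f4 in 10. Untreated mice at 72 h against 0 h gave no call among the 8 members, with log2 values from -0.12 to 0.09, and 1.79% and 2.62% of all genes. E2f1 alone of the 8 had an unadjusted p under 0.05 there, and DESeq2 also gave 0 calls.

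The test of the difference between the treatment effects at 48 h and 72 h passed for 7 of 8 members, 6 with a more positive and 1 with a more negative effect at 48 h, against 18.5% and 13% of all genes. E2f8 had the largest difference (log2 0.73 ± 0.13, edgeR adjusted p = 3.7e-05), followed by E2f7 (0.54 ± 0.12) and E2f5 (-0.48 ± 0.10). E2f2 did not pass (0.13 ± 0.083, edgeR adjusted p = 0.22). Over 10 alternatives E2f3 and E2f6 passed in 4, E2f4 in 6, E2f1 and E2f5 in 8, E2f7 in 9 and E2f8 in all 10.

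**Figure D2:**
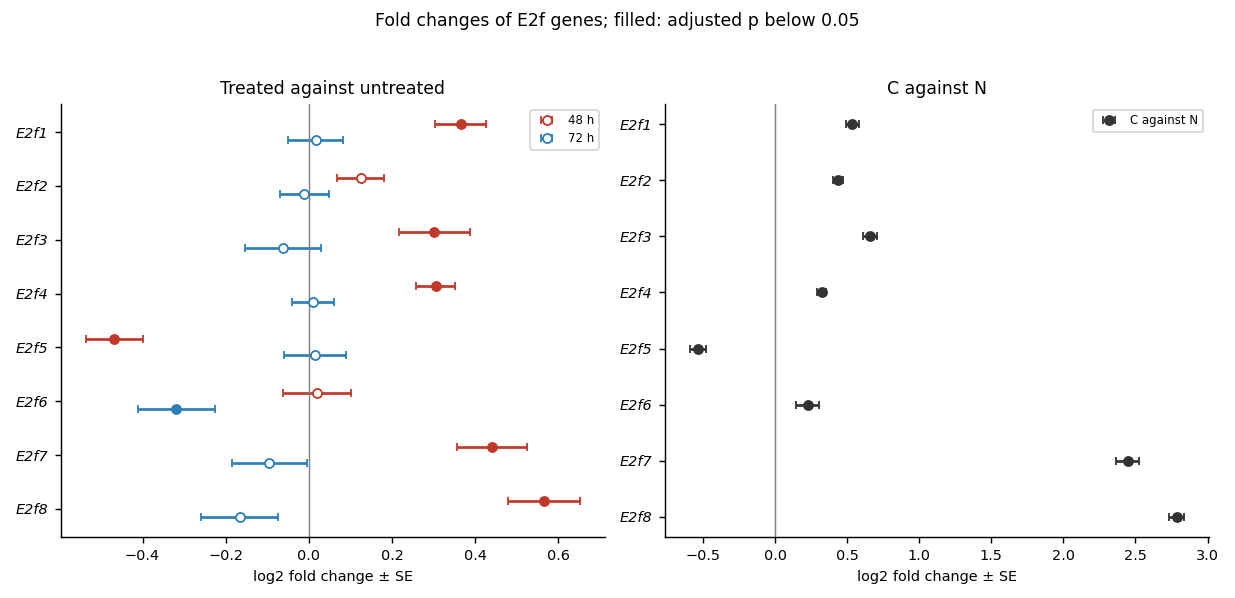
The left panel gives log2 fold changes of treated against untreated mice at 48 h and 72 h and the right panel those of C against N cells, with bars of 1 SE and filled points for an adjusted p below 0.05. At 48 h the members run from -0.47 for E2f5 to 0.57 for E2f8, and in C against N E2f7 and E2f8 stand at 2.45 and 2.79.

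The cell-cycle phase moved with treatment. Phases were called from lists of S and G2-M genes without any E2f member. In treated mice at 48 h, 20.9 ± 2.71% of cells were called G0-G1, 35.9 ± 2.23% S and 43.2 ± 2.92% G2-M, against 52.0 ± 4.19%, 21.2 ± 2.59% and 26.9 ± 3.66% in untreated mice. Most members also differed by phase, here in plain CPM of the cells of a phase, without TMM factors. Over the 39 mice of the time course, E2f8 averaged 2.78 ± 1.93 CPM in G0-G1 cells, 111 ± 10.7 in S cells and 71.7 ± 9.32 in G2-M cells, and was highest in S in 39 of 39 mice. E2f7 averaged 1.71 ± 1.4, 65.7 ± 11.9 and 38.9 ± 8.93 CPM, and E2f1 21.1 ± 5.43, 102 ± 10.7 and 25.0 ± 3.92 CPM. E2f3 and E2f6 were also highest in S, in 39 and 37 of 39 mice. E2f5 went the other way, with 33.1 ± 6.51 CPM in G0-G1 against 21.2 ± 5.64 in S, and was highest in G0-G1 in 37 mice. E2f2 and E2f4 varied less, from 69.8 to 91.8 and from 73.9 to 95.2 CPM. The phases come from genes of the same cells, so these values are a description.

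Within called phases, few members differed between treated and untreated mice at 48 h. In S cells 0 of 8 members passed edgeR's test and 0 with DESeq2, against 5.78% of genes higher and 5.88% lower; E2f5 and E2f8 had an unadjusted p under 0.05. E2f8 in S cells averaged 108 ± 11.4 plain CPM untreated and 116 ± 8.16 treated, a log2 fold change of 0.14 with a 95% interval of 0.01 to 0.28, below the 0.57 over all cells. E2f7 in S cells had an interval of -0.03 to 0.34. In G2-M cells E2f4 rose (0.20 ± 0.054, edgeR adjusted p = 0.0087) and E2f5 fell (-0.40 ± 0.096, edgeR adjusted p = 0.0029), against 9.09% and 7.81% of genes. In G0-G1 cells, where E2f7 and E2f8 were too low to test, E2f5 alone passed (-0.38 ± 0.12, edgeR adjusted p = 0.041), against 4.52% and 4.57%. The G0-G1 call was lost in 6 of 7 alternatives, with log2 values from -0.40 to -0.30 in all of them, and the G2-M calls of both genes were lost in either experiment alone and with thinned cells. E2f1 and E2f4 in G0-G1 cells had log2 fold changes of 0.40 ± 0.16 and 0.25 ± 0.093 that did not pass (edgeR adjusted p = 0.12 and 0.081).

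**Figure D3:**
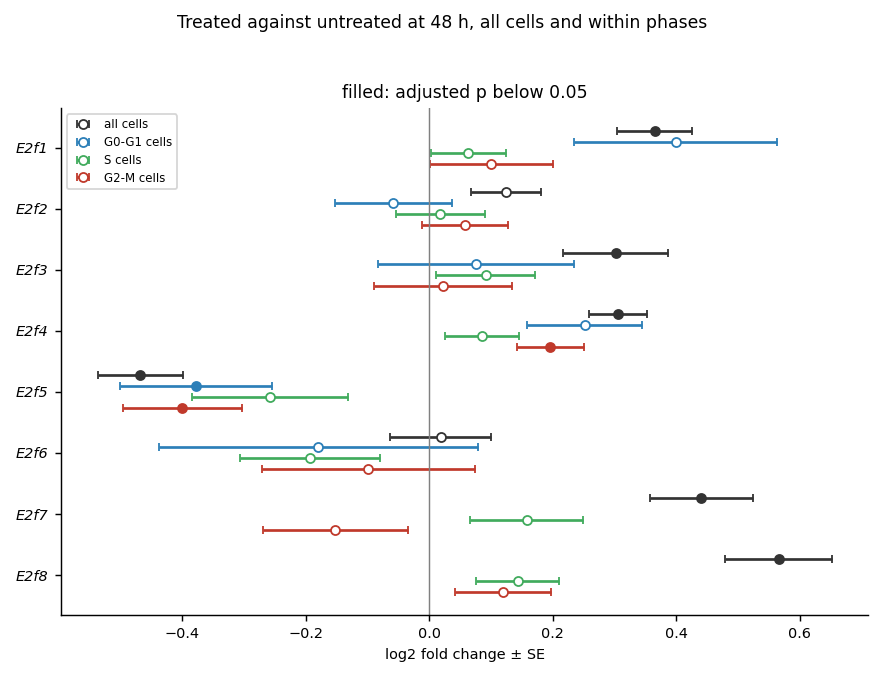
Log2 fold changes of treated against untreated mice at 48 h with bars of 1 SE are shown for all cells and for cells called G0-G1, S or G2-M, with filled points for an adjusted p below 0.05. E2f8 lies at 0.57 over all cells and at 0.14 and 0.12 within S and G2-M cells, whereas E2f5 lies below 0 in each.

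Between the sorted populations, the atypical repressors differed most. E2f8 was 6.90-fold and E2f7 5.45-fold higher in C than in N cells, while E2f1, E2f2, E2f3, E2f4 and E2f6 were 1.17-fold to 1.58-fold higher and E2f5 was lower. All 8 members passed, 7 higher and 1 lower, where 36.5% of all genes were called higher and 38.6% lower, so that a call by itself was common. TMM factors raised all log2 values of C against N by 0.20 relative to plain CPM. The log2 values of E2f6 (0.23) and E2f4 (0.32) lay near this shift, so most of both rests on the factors. In plain CPM E2f6 was lower in C than in N cells in some of the mice. C cells were 16.9 ± 2.73% G0-G1, 32.7 ± 3.65% S and 50.5 ± 4.19% G2-M, and N cells 57.8 ± 4.43%, 32.2 ± 2.97% and 9.997 ± 1.97% (n = 7). N cells held 13409 ± 1270 UMIs per cell and C cells 10973 ± 739. Per 1000 cells, E2f2 (1198 in C, 1224 in N), E2f4 (982, 1093) and E2f6 (132, 157) averaged fewer UMIs in C. E2f1 (706, 677), E2f3 (647, 573), E2f7 (775, 200) and E2f8 (1117, 228) averaged more in C, and E2f5 fewer (219, 437). Each population was 1 library, and a difference between libraries cannot be told apart from one between populations.

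E2f8 was at 13.5, 15.4 and 21.8 CPM in N and at 102, 108 and 116 CPM in C cells, a log2 fold change of 2.79 ± 0.053 (edgeR with the mouse as block, adjusted p = 2.1e-24). E2f7 was at 8.56, 12.1 and 21.9 CPM in N and 69.6, 76.7 and 80.5 CPM in C cells (log2 2.45 ± 0.079, edgeR adjusted p = 1.6e-19). For both genes the highest N mouse lay far below the lowest C mouse.

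The activators differed by less. E2f1 was at 41.6, 44.5 and 59.2 CPM in N and 60.5, 69.0 and 77.3 CPM in C cells (log2 0.54 ± 0.048, edgeR adjusted p = 1.8e-10). E2f2 was at 81.2, 84.0 and 90.8 CPM in N and 109, 117 and 125 CPM in C cells (log2 0.44 ± 0.033, edgeR adjusted p = 6.4e-12). Although E2f2 had not passed at 48 h, its groups did not overlap here. E2f3 was at 33.7, 38.6 and 48.4 CPM in N and 59.3, 63.5 and 66.9 CPM in C cells (log2 0.66 ± 0.050, edgeR adjusted p = 8.4e-12).

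Of the other repressors, E2f4 was at 70.9, 74.0 and 84.2 CPM in N and 92.1, 94.9 and 103 CPM in C cells (log2 0.32 ± 0.032, edgeR adjusted p = 1.3e-09). E2f5 was at 24.9, 31.3 and 34.7 CPM in N and 20.1, 20.8 and 23.8 CPM in C cells (log2 -0.53 ± 0.056, edgeR adjusted p = 5.0e-09). The groups of E2f4 and of E2f5 did not overlap either, although in plain CPM, without TMM factors, those of E2f4 and of E2f1 did. E2f6 was at 8.56, 11.6 and 13.3 CPM in N and 12.4, 12.9 and 13.5 CPM in C cells (log2 0.23 ± 0.078, edgeR adjusted p = 0.012). It was the one member whose ranges overlapped with TMM factors. The share of all tested genes with ranges apart was not counted, here or at 48 h. Ranges apart can therefore not be read as a trait of the family. Over 18 alternatives E2f6 passed in 13, and was lost with DESeq2 (log2 0.23, adjusted p = 0.075), in dark-zone cells (0.18, 0.078), in B1-8hi cells (0.13, 0.23) and in G0-G1 or G2-M cells alone.

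**Figure D4:**
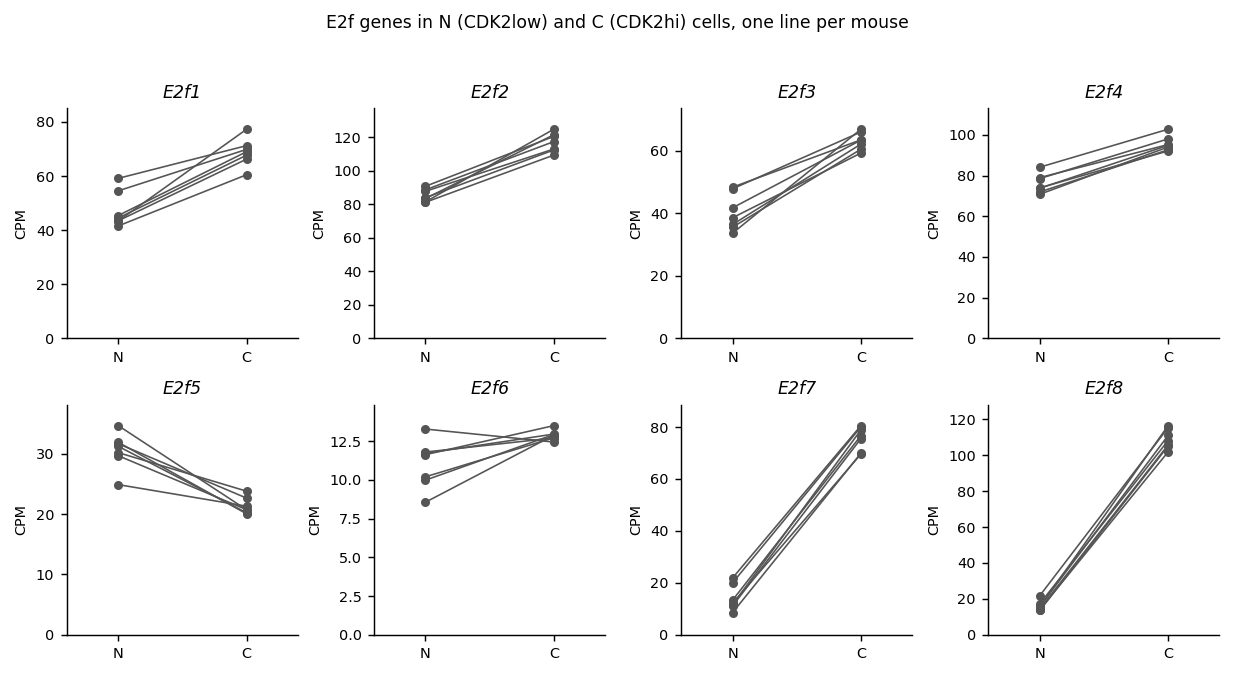
CPM of each gene in the N and C cells of 7 mice, with 1 line joining the populations of a mouse. Every line rises in E2f7 and E2f8, from at most 21.9 CPM in N to at least 69.6 CPM in C, and E2f5 falls.

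Summed over genes, the balance between classes also differed. E2f1 to E2f3 summed to 173 ± 13.2 CPM in N and 249 ± 11.7 CPM in C cells, and E2f4 to E2f8 to 148 ± 8.26 and 315 ± 5.58 CPM. The ratio of activators to repressors was 1.099 to 1.26 in N and 0.757 to 0.828 in C mice. In the time course it averaged between 0.749 ± 0.088 and 0.846 ± 0.13 in the 5 groups, and the ranges overlapped. Without E2f7 and E2f8, the remaining repressors summed to 118 ± 5.85 CPM in N and 130 ± 4.33 CPM in C cells, and the ratio turned, with 1.32 to 1.74 in N against 1.75 to 2.06 in C mice. These sums of 5′ tag counts describe the libraries and were not tested.

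Cells called S made up 32.2 ± 2.97% of N and 32.7 ± 3.65% of C cells. Phases were scored within each pool, so that cells called S in N and in C need not be in the same state. The TMM factors of each fit raised the log2 difference of C against N by 0.12 in G0-G1, 0.17 in S and 0.15 in G2-M cells, relative to plain CPM, and the CPM that follow carry them. Within S cells E2f8 averaged 35.3 ± 4.80 CPM in N and 144 ± 5.78 CPM in C (log2 2.04 ± 0.059, edgeR adjusted p = 3.1e-26), and E2f7 31.9 ± 9.24 and 95.1 ± 4.89 CPM (log2 1.58 ± 0.078, edgeR adjusted p = 3.2e-19). E2f1 in S cells averaged 96.8 ± 11.8 and 118 ± 7.85 CPM (log2 0.29 ± 0.049, edgeR adjusted p = 3.7e-06), a difference of 0.12 in plain CPM. In G0-G1 cells E2f1 averaged 12.8 ± 2.40 CPM in N and 49.8 ± 10.6 CPM in C (log2 1.91 ± 0.11, edgeR adjusted p = 6.3e-20). There E2f7 had 0 to 2 UMIs per mouse in N and 7 to 45 in C cells, and E2f8 0 to 6 and 10 to 50. E2f4 turned in G2-M cells, at 105 ± 8.31 CPM in N and 91.6 ± 7.51 CPM in C (log2 -0.17 ± 0.070, edgeR adjusted p = 0.037), and at -0.34 in plain CPM. E2f6 did not pass in G0-G1 (log2 0.17, adjusted p = 0.40) or G2-M cells (0.39, 0.16). Within phases 30.2% (S), 31.2% (G0-G1) and 25.8% (G2-M) of genes were called higher in C, and 31.6%, 31.8% and 25.5% lower. This split by phase was chosen after seeing the data.

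**Figure D5:**
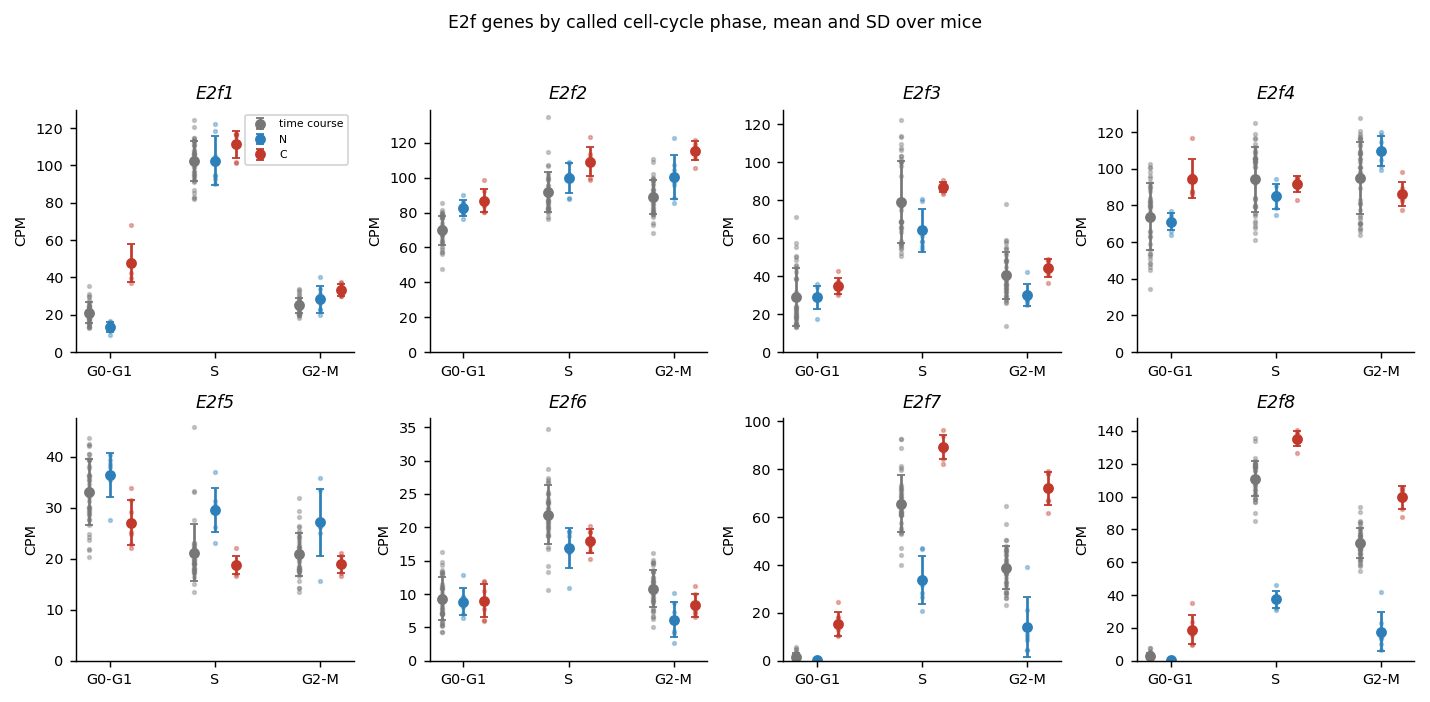
Plain CPM, without TMM factors, of each gene by called phase, with small points for mice and large points with bars for mean and SD, in the 39 mice of the time course and in the N and C cells of 7 mice. E2f7 and E2f8 are near 0 in G0-G1 cells of N and the time course, and in S cells reach 33.8 and 37.4 CPM in N but 89.3 and 135 CPM in C.

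The partners of the family moved with it in part. Tfdp1, the dimerization partner that most E2F proteins need to bind DNA, averaged 135 ± 12.9 CPM in untreated and 184 ± 5.50 CPM in treated mice at 48 h (log2 0.45 ± 0.072, edgeR adjusted p = 2.7e-06). Tfdp2, the other partner, did not pass (log2 0.17, edgeR adjusted p = 0.15). In C against N cells both rose, by 0.77 ± 0.033 and 0.57 ± 0.069. Of the pocket proteins, Rb1 and Rbl1, which encode pRB and p107, rose at 48 h (log2 0.24 ± 0.072 and 0.26 ± 0.061, edgeR adjusted p = 0.0050 and 0.00061). Rbl2, which encodes p130 and is linked to quiescence, did not pass (log2 -0.12, adjusted p = 0.15). Treated mice at 48 h had less Rbl2 than 0 h mice (log2 -0.21, edgeR adjusted p = 0.0034). They also had less than treated mice at 72 h (log2 -0.17, edgeR adjusted p = 0.034). In these 2 comparisons 24.7% and 22.3% of all genes were called lower. In C against N cells Rbl1 rose by 1.03 ± 0.038 and Rb1 by 0.37 ± 0.064, and Rbl2 did not pass (0.03, adjusted p = 0.50). None of these 5 genes passed between treated and untreated mice at 72 h, where 4.67% of all genes were called higher and 3.88% lower. At 48 h these shares were 26.3% and 21.1%, and in C against N cells 36.5% and 38.6%.

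The 6 listed partners of E2f6 in Polycomb-type complexes divided at 48 h, when 26.3% of all genes were called higher and 21.1% lower, with Cbx3, L3mbtl2 and Pcgf6 up (log2 0.27, 0.21 and 0.22) and Mga, Max and Rybp down (log2 -0.14, -0.16 and -0.28), all by edgeR's test. In C against N cells Cbx3 (0.81), L3mbtl2 (0.71) and Pcgf6 (0.17) again rose, Max (-0.50) and Mga (-0.41) fell, and Rybp did not pass, where 36.5% of all genes were called higher and 38.6% lower.

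Of 38 listed E2F targets 37 were tested at 48 h, 36 rose and 0 fell, against 26.3% and 21.1% of all genes, with a median log2 fold change of 0.48. All 30 genes of the G1/S list and all 4 of the G2/M list rose, with Rrm2 and Tyms, enzymes of nucleotide synthesis, among the largest rises. Rrm2 averaged 180 ± 23.3 CPM untreated and 302 ± 21.9 CPM treated (log2 0.74 ± 0.11, edgeR adjusted p = 1.1e-06). Within S cells 5 of 37 rose, among them Ccne1, Rrm1 and Rrm2, named after their values were seen, within G2-M cells 19 of 37, and within G0-G1 cells 15 of 36, with medians of 0.05, 0.20 and 0.43. Of these targets 1 fell, Bub1b in G2-M cells (log2 -0.16, edgeR adjusted p = 0.023), also named after its value was seen. Of all genes, 5.78%, 9.09% and 4.52% were called higher in these phases and 5.88%, 7.81% and 4.57% lower. The lists that called the phases hold several of these targets, Rrm1 and Rrm2 among them, so the counts within phases are a description. At 72 h, 1 of the 30 genes of the G1/S list fell, Tyms (-0.27), and 0 rose, and none of the 4 G2/M genes passed edgeR's test. Of all genes, 3.88% were called lower and 4.67% higher at 72 h. In C against N cells 37 of 37 rose, where 36.5% of all genes did, with a median of 1.31, and the 4 G2/M targets had a median of 3.30. The lists describe known targets and their change was not tied to any one member.

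Across the 39 mice of the time course, each experiment centred on its own mean, the genes most like E2f8 in log2 CPM were Fbxo5, an inhibitor of the anaphase-promoting complex (Pearson r = 0.95), Rrm2 (0.95) and Atad5 (0.95). For E2f1 they were Ppil1 (0.85), Mcm6, a subunit of the replicative helicase (0.84), and Prim1, a primase subunit (0.84). E2f3 was most like Tfdp1 (0.85), Mcm5 (0.83) and Exo1 (0.82), and E2f7 most like Ncapg2 (0.87), Nsd2 (0.84) and E2f8 (0.84). E2f5 was most like Map3k14 (0.87), Siglecg (0.87) and Cd74 (0.87), the last the invariant chain of antigen presentation, and correlated with E2f8 at -0.73. E2f4 was most like Snrpd1 (0.93), Psma7 (0.92) and Ywhae (0.92), E2f2 like Inpp5b (0.74), Stk26 (0.69) and Foxm1 (0.68), and E2f6 like Tgs1 (0.67), Septin11 (0.61) and Gstt2 (0.60). The mice share libraries and treatment groups, so these coefficients describe the mice and carry no test.

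Markers of the zones moved with these results. Summed light-zone markers ranged from 319 to 445 CPM in treated mice at 48 h and from 694 to 811 CPM in untreated mice, and from 393 to 519 CPM in C and 826 to 1066 CPM in N cells. Summed dark-zone markers ranged from 4149 to 4608 CPM in treated and 3407 to 3898 CPM in untreated mice at 48 h, and from 4674 to 5026 CPM in C and 1903 to 2382 CPM in N cells. Summed naive or memory B cell markers ranged from 92.9 to 191 CPM in treated and 231 to 406 CPM in untreated mice at 48 h, and from 94.7 to 173 CPM in C and 322 to 492 CPM in N cells, with no marker of these lists at 0. In cells with a higher dark-zone than light-zone score, the log2 fold changes of C against N were 2.53 for E2f8, 2.18 for E2f7, 0.37 for E2f1 and -0.58 for E2f5. The part of the marker differences in the results was not tested.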

How the data were processed

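Unique molecular identifier (UMI) counts per gene and cell were deposited by the authors as CellRanger matrices, not normalized; the submitters' processing notes list Cell Ranger 6.0.1, Seurat 5.1.0 and the mm39 build, whereas file headers name a later CellRanger release. Of 4 pools, 2 held the time course and 2 the C and N cells, read as cytoplasmic and nuclear reporter. Counts of contig UMIs, also deposited, gave the B1-8hi pairing. The other libraries of the series were not used here.

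Mice were assigned from hashtags with HTODemux (Seurat 5.3.0, quantile 0.99, exact match), and 23698 and 11833 cells remained after dropping those below 200 detected genes or with a mitochondrial share of 10% or more. Hashtags of 2 listed mice of the sort had almost no UMIs, and 1 hashtag that is not listed was seen in both of its pools. Cells positive for it were assigned to no mouse. Doublets of 1 mouse were not searched for. The sums of UMIs over the cells of each mouse were fitted by edgeR 4.0.16 under R 4.3.3 (quasi-likelihood test, TMM, low genes dropped by filterByExpr, Benjamini-Hochberg, threshold 0.05), with a term for the experiment, or for the mouse in C against N. The 2 populations of a mouse share its name, and their deviations correlated at 0.21 to 0.66 in 7 of 7 mice. The fits were tested on simulated data.

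The members, lists and rules were chosen with earlier results of these data known. Named genes were all members, Tfdp1, Tfdp2, Rb1, Rbl1, Rbl2, the 3 largest rises and falls among targets at 48 h (no target fell), E2f6 partners past the threshold at 48 h, and the 3 genes most correlated with each member. Further target values were named after they were seen. Some of the targets and 1 promoter sequence that these rules select are not reported here. Alternatives were DESeq2 1.42.0, no filter on genes or cells, highest hashtag, B1-8hi cells, cells thinned to 2871 (time course) or 5260 (sort) UMIs, each experiment, no experiment term, only the groups compared, full phase lists, no mouse block, dark-zone cells and each sorted mouse left out.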

Additional observations from a re-analysis of the deposited data

Results flagged for a closer look

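The treatment effect differed between 48 h and 72 h, by the test of the difference itself, for 7 of the 8 members. The log2 effect at 48 h minus that at 72 h was 0.73 for E2f8, 0.54 for E2f7, 0.36 for E2f3, 0.35 for E2f1, 0.34 for E2f6, 0.30 for E2f4 and -0.48 for E2f5. The shares of cells in each phase moved in the same comparison. E2f8 passed under all 10 alternatives, with values from 0.51 to 0.998, E2f7 under 9, E2f1 and E2f5 under 8, E2f4 under 6, and E2f3 and E2f6 under 4 each. Dixon's gap test at the 95% level passed for no mouse in 56 combinations of gene and group with both experiments pooled.

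Within the larger experiment, where 40 combinations had enough mice, it passed in 2, both for E2f8 in groups of 6 mice. The combinations share mice and are not independent, and whether this count exceeds chance was not tested. One outlier was the 0 h mouse at 34.5 CPM, with the others at 64.1 to 73.7 CPM. Without this mouse the calls of E2f1 and E2f7 against 0 h were lost. Among the 0 h mice of its experiment it was also lowest for E2f1 (37.4 CPM), E2f2 (66.4), E2f3 (27.5), E2f4 (88.9) and E2f7 (21.0). It was highest for E2f5 (35.95 CPM) and lay between the others for E2f6 (14.5 CPM). The other outlier was a treated mouse at 48 h with 97.5 CPM, with the others of its experiment at 78.9 to 85.2 CPM. E2f8 in the remaining treated mice still lay above the highest untreated mouse, at 64.8 CPM.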

How the results depend on the processing

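The calls of E2f5 and E2f8 at 48 h against untreated mice and against 0 h, and that of E2f1 at 48 h against untreated mice, passed under every alternative run, and the number of members called at 48 h stayed within 1.5 times of 6 (4 to 7). E2f3 and E2f4 were lost there without the experiment term, and E2f3 and E2f7 in the smaller experiment. E2f6 at 48 h, close to 0, changed sign with DESeq2 (-0.0038), with only the groups compared (-0.0045) and in the smaller experiment (-0.076).

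At 72 h, the 1 call became 0 without a term for the experiment, in the smaller experiment, in B1-8hi cells and with thinned cells. Treated mice at 48 h against 0 h gave 2 calls in place of 6 without the experiment term (E2f5 and E2f8) and 3 in the larger experiment or in B1-8hi cells (E2f4, E2f5 and E2f8 in both). Between treated mice at 48 h and 72 h, the smaller experiment gave 2 in place of 7. For the difference of effects, 7 calls became 3 without the experiment term, 2 in the smaller experiment, 3 in B1-8hi cells and 4 with thinned cells. Within G0-G1 cells the 1 call became 0 with DESeq2, without the filter on low counts, in either experiment, with thinned cells and in B1-8hi cells. Within G2-M cells 2 calls became 0 in either experiment and with thinned cells, and 1 in B1-8hi cells. The smaller experiment has 14 mice and the B1-8hi cells are fewer; other causes were not tested.

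In C against N, 7 or 8 members passed in each alternative, 8 without the replicate block (no pairing by mouse), and 8 with any 1 mouse left out. E2f4 changed sign in G2-M cells (-0.17). Depth limits E2f6 most, with 21 to 186 UMIs per mouse in the time course, and E2f7 and E2f8 in G0-G1 cells.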
